A study of Mus musculus with 9 samples.

Results

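Gucy2d, Cnga3, Pde2a, Car2 and Gucy1b2 are genes of olfactory neurons that do not use the usual odorant receptors, and their rows were taken by name from the raw count table, 5 of its 24421 gene rows. All 5 passed the filter on low counts. Expression was measured by RNA-seq of whole main olfactory epithelium (MOE), which lines the nose and holds its odour-sensing neurons, in 9 mice of a line in which CRISPR-Cas9 had removed TAAR enhancer 1, a noncoding element near Taar2 in the cluster of trace amine-associated receptor (Taar) genes. The mice, littermates of a single knockout line, fell into 3 genotypes of 3 mice: WT, with both enhancer copies; het, with 1 copy deleted; and homo, with both deleted. The labels give strain C57BL/6 and postnatal day 14 for every mouse, whereas the study's reporting summary describes a mixed strain background and older mice of this line, and which holds here was not resolved. No other allele, transgene or treatment is given for these mice.

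Most olfactory sensory neurons detect odorants through G protein-coupled receptors, make cyclic AMP and open a channel built around Cnga2. The necklace neurons, named after the ring of glomeruli they reach in the olfactory bulb, use cyclic GMP instead. They carry the receptor guanylyl cyclase GC-D (Gucy2d), the cyclic GMP-gated channel subunit Cnga3, the cyclic GMP-stimulated phosphodiesterase Pde2a and the carbonic anhydrase Car2, respond to carbon disulfide, bicarbonate and the peptides guanylin and uroguanylin, and express MS4A membrane proteins as chemoreceptors. A further small population expresses the soluble guanylyl cyclase subunit Gucy1b2 together with the channels Trpc2 and Cnga2 and is known for responses to low oxygen. Taar genes belong to neither population. The question asked of these data was whether genes of the cyclic GMP populations differed between genotypes when an enhancer of another olfactory receptor family was absent.

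No member passed the test in any pair of genotypes. Of 20213 genes tested, the adjusted p was under 0.05 for 0.0495% in homo against WT mice, 0.00495% in het against WT and 0.114% in homo against het (edgeR quasi-likelihood test with Benjamini-Hochberg adjustment), and 0 of the 5 members were among them. In the test for any difference among the genotypes 0 of 5 passed as well, against 0.0643% of genes. DESeq2 without independent filtering called 0 of 5 members in each pair, against 0.237%, 0.0148% and 0.609% of genes. Without adjustment, 2 members had an edgeR p under 0.05 in homo against WT mice, Cnga3 and Gucy2d, against 9.26% of all genes. No member did in het against WT or homo against het mice, where 3.25% and 10.4% of genes did, and Cnga3 alone did in the test for any difference, against 8.45% of genes. The largest differences in homo against WT mice were the higher levels of Cnga3 and Gucy2d among the members, and the 9 libraries spanned 44.1 to 49.8 CPM (reads of a gene scaled to the library's depth) for Pde2a and 103 to 124 CPM for Car2. The median log2 fold change of the 5 members was 0.016 in homo against WT mice, 0.040 in het against WT and 0.13 in homo against het, beside -0.00051, 0.0033 and -0.0017 over all genes tested.

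The deletion itself was visible in the counts. Taar2, Taar3, Taar4 and Taar5 together reached 9.11 to 10.3 CPM in WT mice, 5.34 to 6.54 CPM in het and 0.0387 to 0.106 CPM in homo mice. Each library held 24583906 to 32631951 reads in genes, and 3 reads corresponded to 0.0916 to 0.122 CPM, a limit that covers counting error only. All 10 markers of canonical mature olfactory neurons, such as Omp and Gnal, had reads in every library and summed to 7719 to 8620 CPM. The receptors of vomeronasal neurons, which detect pheromones in an organ apart from the MOE, reached a sum of 67.9 CPM in het replicate 1, 119.7 CPM in homo replicate 2 and 69.5 CPM in homo replicate 3, and of 14.6 to 17.3 CPM in the other libraries, so results are also given without these 3 libraries. Because whole tissue was sequenced, fewer cells of a type and less RNA per cell cannot be told apart.

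Gucy2d encodes the receptor that defines the necklace neurons. It lies on the forward strand of chromosome 7 (GRCm38, chr7:98440416-98477479, ENSMUSG00000074003), with 19 exons in its longest transcript, and shares no exonic base with the predicted genes Gm2926 and Gm44978 that overlap it. The base runs shown for Gucy2d, Cnga3 and Gucy1b2 come from windows of 250 bases before a RefSeq transcription start on GRCm38.p6. A window is cut short where an exon begins. The Cnga3 run is cut to 214 bases, so it stops short of the start, and it lies inside the gene span given below. The runs are printed because these 3 genes mark the populations and varied most between mice. Capitals mark a searched motif.

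Gucy2d, chr7:98440166-98440415, forward strand: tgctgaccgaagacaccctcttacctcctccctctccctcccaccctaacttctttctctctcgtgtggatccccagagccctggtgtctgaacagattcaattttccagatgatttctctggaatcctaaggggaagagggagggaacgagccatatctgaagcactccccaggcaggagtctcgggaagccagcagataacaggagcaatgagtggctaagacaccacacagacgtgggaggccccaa
Cnga3, first of 2 starts, chr1:37218028-37218241, forward strand: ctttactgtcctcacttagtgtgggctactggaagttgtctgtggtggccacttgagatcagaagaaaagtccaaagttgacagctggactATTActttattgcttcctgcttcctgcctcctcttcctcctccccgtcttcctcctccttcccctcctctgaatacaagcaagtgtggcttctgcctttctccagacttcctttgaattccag
Gucy1b2, chr14:62456290-62456539, reverse strand: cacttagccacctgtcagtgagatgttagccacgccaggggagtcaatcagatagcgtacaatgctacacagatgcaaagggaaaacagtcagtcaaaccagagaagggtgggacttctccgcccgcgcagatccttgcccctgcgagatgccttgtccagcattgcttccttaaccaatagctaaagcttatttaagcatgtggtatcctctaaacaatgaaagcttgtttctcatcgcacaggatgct

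The motifs, searched on both strands, were TAAT and TAATTA (cores of homeodomain sites, the shorter contained in the longer) and TATAAA (the TATA box). The only capitals in the 3 sequences are an ATTA, the reverse complement of TAAT, 159 bases before the Cnga3 start. The distance is counted to the start itself, beyond the end of the cut sequence. TAAT stood in 54.9% of 32851 RefSeq promoter windows of 250 bases, TAATTA in 4.84% and TATAAA in 12.4%. Of the other windows of members, TAAT stood in the window of the other Cnga3 start, where TATAAA also matched, and in 2 of the 5 Pde2a windows. A match is a run of letters and not a shown binding site, and no match says only that these letters are not in the window.

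Gucy2d was read 180 to 292 times per library. Its level was 7.23, 7.03 and 7.77 CPM in WT replicates 1 to 3, 6.63, 9.19 and 9.88 CPM in het and 9.05, 8.90 and 10.1 CPM in homo mice. The 3 homo libraries all lay above the 3 WT libraries, and het mice spanned both, with replicate 1 below every WT mouse. The means were 7.34 ± 0.386 CPM (SD, n = 3) in WT, 8.56 ± 1.71 CPM in het and 9.36 ± 0.674 CPM in homo mice. In homo against WT mice Gucy2d differed by 0.35 on the log2 scale (SE 0.14, 95% interval 0.062 to 0.64), a 1.28-fold higher level, which did not pass the test (edgeR adjusted p = 0.451). By p-value it stood 919th of 20213 genes. The difference was 0.22 (SE 0.14) in het against WT and 0.13 (SE 0.13) in homo against het, with adjusted p = 1.00 and 0.796 (edgeR). In order, homo lay above het and het above WT, but neither pair of neighbours differed beyond its spread.

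Cnga3 forms the channel that cyclic GMP opens in these neurons. It lies at chr1:37214434-37263384 on the forward strand (GRCm38, ENSMUSG00000026114), with 7 exons in the longest transcript and no overlapping gene. It was the sparsest member, with 18 to 36 reads per library and 232 in all, so counting alone gives a coefficient of variation of 19.7% at its mean of 25.8 reads. Its level was 0.803, 0.611 and 0.696 CPM in WT replicates 1 to 3, 0.962, 1.06 and 0.879 CPM in het and 0.951, 1.22 and 1.39 CPM in homo mice. Every het and every homo mouse lay above every WT mouse, and het and homo overlapped. The means were 0.703 ± 0.0963, 0.967 ± 0.0897 and 1.19 ± 0.222 CPM (SD, n = 3 each) in WT, het and homo mice. In homo against WT mice the log2 fold change was 0.76 (SE 0.28, 95% interval 0.17 to 1.36), a 1.70-fold higher level with an interval of 1.12 to 2.56, and it did not pass the test (edgeR adjusted p = 0.441). By p-value it stood 699th. The log2 fold change was 0.47 (SE 0.28, 95% interval -0.14 to 1.07) in het against WT and 0.29 (SE 0.27) in homo against het (edgeR adjusted p = 1.00 and 0.752). By level, homo came before het and het before WT.

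**Figure D1:**
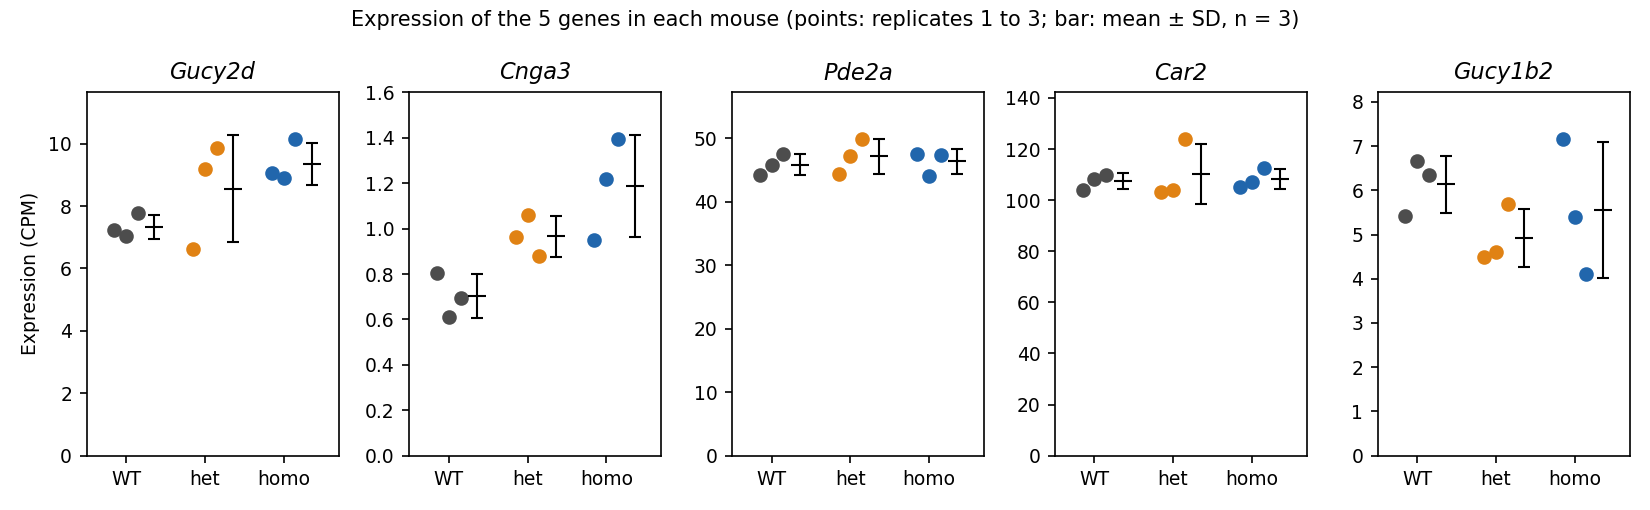
Expression of the 5 genes in CPM (vertical axes, linear and starting at 0), with 1 point per mouse in the order replicate 1 to 3 for WT, het and homo, and a bar for the mean ± SD (n = 3). Homo points lie above all WT points for Gucy2d and Cnga3, and those of Pde2a, Car2 and Gucy1b2 overlap between genotypes.

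Gucy2d and Cnga3 were thus the 2 of 5 members whose homo libraries did not overlap with WT, both higher in homo, beside 15.4% of all genes tested that did not overlap in either direction and 7.46% that were higher. In het against WT mice Cnga3 alone did not overlap, 1 of 5, higher in het, beside 8.68% of genes in either direction and 4.36% that were higher, and in homo against het mice all 5 members overlapped, beside 14.1% of genes that did not. With 5 members, chosen with earlier results of these data known, these counts are a description. Omitting the 3 libraries with more vomeronasal receptor reads left homo mouse 1 against 3 WT mice, and the log2 fold change in homo against WT mice was then 0.30 for Gucy2d and 0.45 for Cnga3. With vomeronasal receptor expression as a covariate it was 0.52 and 0.59. The direction of both stayed the same in all 18 alternatives. With every homo library above every WT library, leaving libraries out could hardly have turned it, so this agreement adds no support. The lowest adjusted p for Gucy2d was 0.249, by edgeR on the 6 WT and homo libraries alone. For Cnga3 it was 0.367, by edgeR without het replicate 3.

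Pde2a hydrolyses cyclic GMP and cyclic AMP and is itself stimulated by cyclic GMP; it is expressed in brain, endothelium and other tissues besides necklace neurons. It lies at chr7:101421691-101512827 on the forward strand (GRCm38, ENSMUSG00000110195), with 32 exons in the longest transcript, and 3955 of its 6149 exonic bases (64.3%) also belong to the same-strand gene model Gm45837, which was not analysed here, so the level is uncertain to the extent that reads there were assigned elsewhere. It was read 1085 to 1499 times per library. The level was 44.2, 45.8 and 47.5 CPM in WT replicates 1 to 3, 44.3, 47.2 and 49.8 CPM in het and 47.5, 44.1 and 47.4 CPM in homo mice. All 3 genotypes covered nearly the same range. The means were 45.8 ± 1.67, 47.1 ± 2.74 and 46.3 ± 1.94 CPM (SD, n = 3 each), and the highest library stood 1.13 times above the lowest. In homo against WT mice the 95% interval of the change was -7.15 to 10.2% (edgeR log2 fold change 0.016, SE 0.058, adjusted p = 0.964). In het against WT mice the log2 fold change was 0.040 and in homo against het -0.024 (edgeR adjusted p = 1.00 and 0.926).

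Car2 converts carbon dioxide to bicarbonate, the step by which necklace neurons sense carbon dioxide, and is also abundant in osteoclasts and red blood cells. The gene lies at chr3:14886273-14900770 on the forward strand (GRCm38, ENSMUSG00000027562), with 7 exons in its longest transcript and no overlapping gene. It had the most reads, 2590 to 3659 per library. The level was 104, 108 and 109.8 CPM in WT replicates 1 to 3, 103, 104 and 124 CPM in het and 105, 107 and 113 CPM in homo mice. Het replicate 3 stood above every other library and the rest overlapped. The means were 107 ± 3.04, 110.2 ± 11.7 and 108 ± 3.98 CPM (SD, n = 3 each) in WT, het and homo mice. In homo against WT mice the 95% interval of the change was -8.02 to 10.5% (edgeR log2 fold change 0.012, SE 0.062, adjusted p = 0.977). In het against WT the log2 fold change was 0.038 and in homo against het -0.026 (edgeR adjusted p = 1.00 and 0.924). Summed osteoclast markers (6 genes, all with reads in every library) ranged from 1017 to 1167 CPM in WT, 905 to 1171 CPM in het and 909 to 1027 CPM in homo mice. The part of osteoclasts in the Car2 level was not tested.

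Gucy1b2 encodes a beta subunit of soluble guanylyl cyclase and marks the other population. It lies at chr14:62392676-62456289 on the reverse strand (GRCm38, ENSMUSG00000021933), with 17 exons in its longest transcript and no overlapping gene, and was read 106 to 218 times per library. Its level was 5.42, 6.66 and 6.34 CPM in WT replicates 1 to 3, 4.49, 4.61 and 5.68 CPM in het and 7.15, 5.40 and 4.10 CPM in homo mice. Homo mice held both the highest and the lowest level of the 9, and 2 of 3 het mice lay below every WT mouse. The means were 6.14 ± 0.643 CPM in WT, 4.93 ± 0.656 CPM in het and 5.55 ± 1.53 CPM in homo mice (SD, n = 3 each). In homo against WT mice the log2 fold change was -0.14 (SE 0.18), with a 95% interval of -30.2 to 17.3% (edgeR adjusted p = 0.866). In het against WT mice it was -0.32 (SE 0.18), with an interval of -38.2 to 4.07% (edgeR adjusted p = 1.00), and in homo against het 0.17 (SE 0.18, adjusted p = 0.788). The order WT, homo, het had no neighbours that differed beyond their spread.

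For Gucy1b2 the direction in homo against WT mice rested on the libraries used. The 2 homo libraries with lower Gucy1b2, replicates 2 and 3, were those with 119.7 and 69.5 CPM of vomeronasal receptors, and het replicate 1, with 67.9 CPM, had the lowest het level. Het replicate 2 had 4.61 CPM of Gucy1b2 at 16.5 CPM of vomeronasal receptors, beside 4.49 CPM in het replicate 1. Homo replicate 2, the richest library, had 5.40 CPM of Gucy1b2, close to the 5.42 CPM of WT replicate 1 at 14.6 CPM of receptors. The log2 fold change in homo against WT mice turned to 0.22 without the 3 vomeronasal-rich libraries. It turned to 0.12 with vomeronasal receptor expression as a covariate, and to 0.032 without homo replicate 3 alone. None of these passed the test (edgeR adjusted p = 0.927, 0.933 and 0.977). Of 331 vomeronasal receptor genes, 30 had reads in every library and 55 were at 0 throughout. The other vomeronasal neuron markers (Trpc2, at 0, with Gnai2, Gnao1, Ano1, Kirrel3 and Meis2) summed to 700 to 727 CPM in WT mice. The sum was 714 to 726 CPM in het and 730 to 768 CPM in homo mice. Of the receptor-rich libraries, het replicate 1 and homo replicate 2 stood at 726 and 730 CPM on it, near WT replicate 1 at 727 CPM. Homo replicate 3 was highest at 768 CPM. WT mice already reached 700 to 727 CPM on this sum at 14.6 to 16.0 CPM of receptors. A vomeronasal addition of the size seen in the receptors could go unseen in it, so the sum does not show how much vomeronasal tissue a library held. No WT library was rich in vomeronasal receptors, so receptor level and genotype cannot be fully separated here. What part vomeronasal tissue had in the Gucy1b2 level was not tested.

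**Figure D2:**
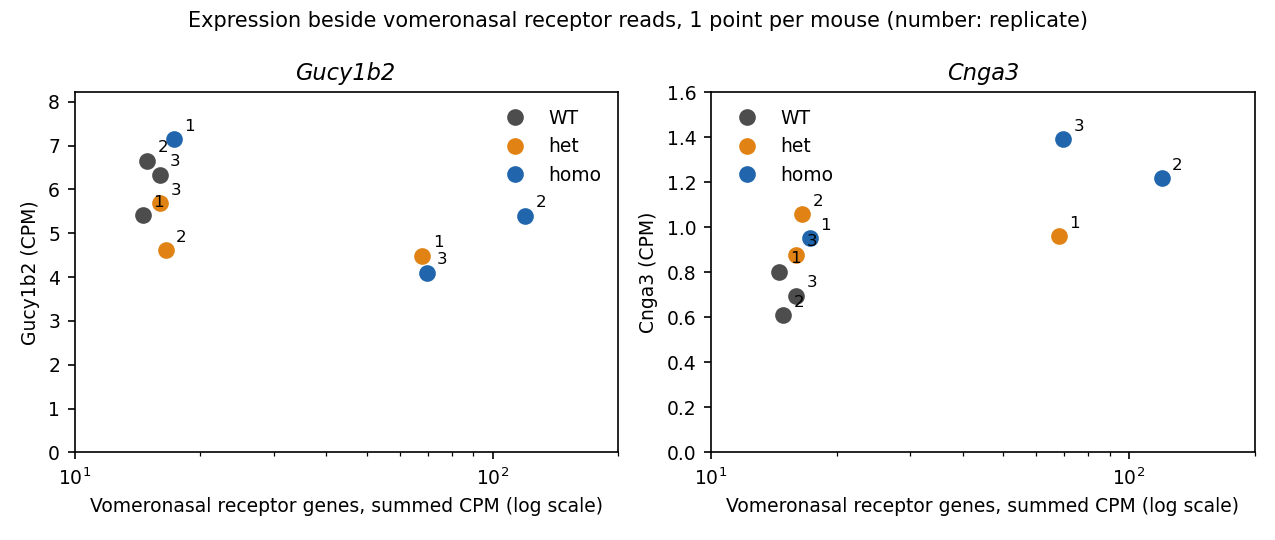
Expression of Gucy1b2 and Cnga3 in CPM (vertical axes, linear and starting at 0) against the summed CPM of vomeronasal receptor genes (horizontal axis, log scale), with 1 point per mouse numbered by replicate and coloured by genotype. Het 1, homo 3 and homo 2 stand apart at 67.9, 69.5 and 119.7 CPM of vomeronasal receptors, with Gucy1b2 at 4.49, 4.10 and 5.40 CPM.

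**Figure D3:**
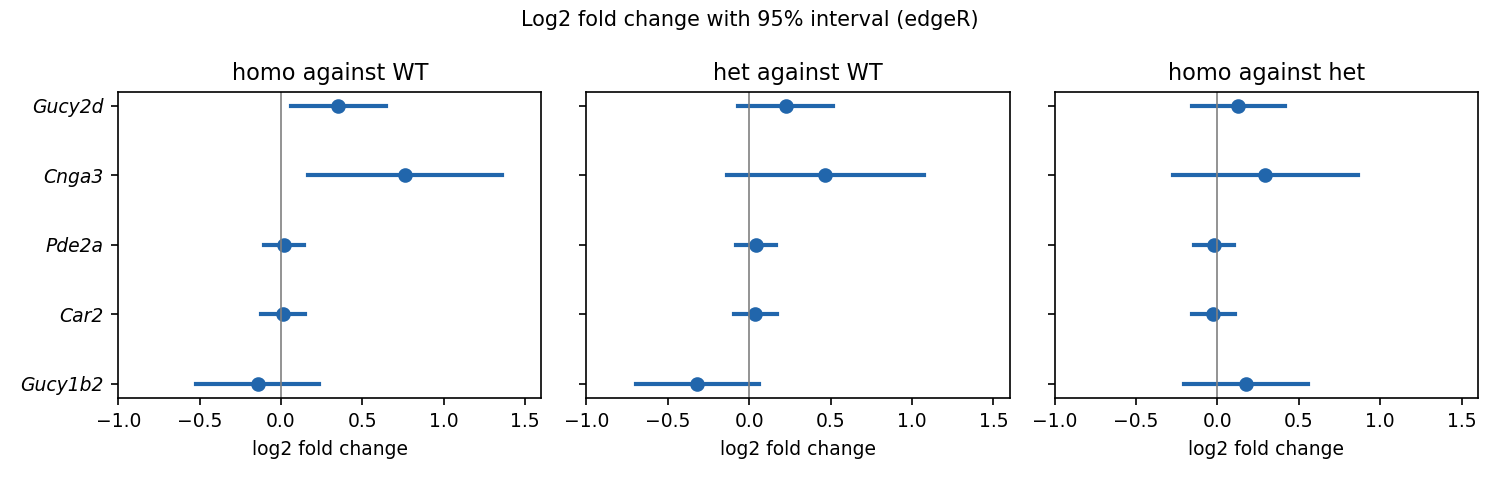
Log2 fold change (horizontal axes) of the 5 genes in homo against WT, het against WT and homo against het mice, as points with 95% intervals from edgeR (n = 3 mice per genotype), with a vertical line at 0. The intervals of Pde2a and Car2 are short and cover 0, and in homo against WT mice those of Gucy2d (0.062 to 0.64) and Cnga3 (0.17 to 1.36) lie above 0 before adjustment for multiple tests.

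The members differed in how steady they were between mice of 1 genotype. The biological coefficient of variation estimated by edgeR was 4.94% for Pde2a and 5.79% for Car2, 10.7% for Gucy2d, 13.9% for Gucy1b2 and 13.99% for Cnga3. These estimates are drawn toward a trend over genes of like level, which stood at 20.2% for Cnga3. Against pure counting error, the chi-square per degree of freedom within genotypes was 0.584 for Cnga3, 2.73 for Pde2a, 3.85 for Gucy2d, 5.23 for Gucy1b2 and 13.9 for Car2, with a median of 2.54 over all genes. Cnga3 therefore varied within genotypes by no more than its counting error, while the spread of the other members exceeded it. Over all 9 libraries, which adds differences between genotypes, the highest stood above the lowest by 2.28 times for Cnga3, 1.74 times for Gucy1b2 and 1.53 times for Gucy2d.

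Levels of different genes were compared per kilobase of exon (RPKM, CPM divided by the exonic length). In WT mice Car2 stood at 44.3 ± 1.26 RPKM, Pde2a at 7.45 ± 0.272, Gucy1b2 at 2.24 ± 0.234, Gucy2d at 1.79 ± 0.0940 and Cnga3 at 0.178 ± 0.0243 (SD, n = 3 each). Among 19427 tested genes with a length, with a median of 4.27 RPKM, Car2 exceeded 95.4% of genes, Pde2a 62.7%, Gucy1b2 39.0%, Gucy2d 35.6% and Cnga3 12.5%. The order was the same with the longest transcript as the length, when the levels were 60.1 RPKM for Car2, 10.9 for Pde2a, 2.26 for Gucy1b2, 2.02 for Gucy2d and 0.198 for Cnga3. Gucy1b2 and Gucy2d were the closest neighbours. The ratio of Gucy2d to Gucy1b2 in RPKM was 0.806 ± 0.0939 in WT, 1.16 ± 0.173 in het and 1.201 ± 0.412 in homo mice (SD, n = 3 each). Their order also differed between mice of a genotype. Gucy1b2 was the higher in all WT mice, in het replicate 1 (ratio 0.988) and in homo replicate 1 (0.847). Within the necklace set, Pde2a stood 4.17 ± 0.156 times above Gucy2d in WT, 3.75 ± 0.616 times in het and 3.31 ± 0.191 times in homo mice. Cnga3 stood at 9.94% ± 1.37, 12.1% ± 2.91 and 13.1% ± 1.92 of Gucy2d. These are ratios in whole tissue, where other cells also express Pde2a. The Pde2a level, here and in its family below, is uncertain because of the exonic bases shared with Gm45837.

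Each member was then placed in its gene family, using lists of 81 genes in 7 families, of which 80 had a row in the table and 68 could be tested. None of the 68 passed the test in any pair by edgeR. At an unadjusted p under 0.05 there were 7 in homo against WT, 2 in het against WT and 10 in homo against het mice, beside 9.26%, 3.25% and 10.4% of all genes. The median log2 fold change over the lists was -0.022, 0.036 and -0.022 in the 3 pairs. Pde5a, a cyclic GMP-specific phosphodiesterase named here after its values were seen, was lower in homo than in het mice by DESeq2 (log2 fold change -0.34, adjusted p = 0.0115 with default settings and 0.0205 without independent filtering), whereas edgeR gave an adjusted p of 0.121. Without het replicate 3 edgeR called Pde5a (adjusted p = 0.0296), Pde11a (0.0426) and Car11 (0.0477) in that pair, the last of these higher in homo mice. That setting called 190 genes in all in homo against het mice, against 23 in the main fit.

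Among 11 guanylyl cyclase genes, the natriuretic peptide receptors Npr2 and Npr1 were highest in WT mice at 9.99 ± 0.305 and 3.77 ± 0.160 RPKM. Gucy1b2 ranked 3 of 11 with 8.96% of the family's summed level and Gucy2d 6 of 11 with 7.18%. Levels from Gucy1b2 down to Gucy2d, with the widely expressed soluble cyclase subunits Gucy1a3 (2.096 ± 0.137 RPKM) and Gucy1b3 (1.98 ± 0.234 RPKM) between them, lay close together. Of 12 genes for inputs to cyclases, Nos3, the endothelial nitric oxide synthase, led at 4.42 ± 0.176 RPKM, and Nppc, which encodes C-type natriuretic peptide, followed at 1.44 ± 0.422 RPKM. Neither differed between homo and WT mice by the test (log2 fold change 0.035 and -0.44, edgeR adjusted p = 0.945 and 0.637).

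The channel list set Cnga3 beside the channel of canonical neurons. Cnga2, the subunit that cyclic AMP opens, stood at 188 ± 3.18 RPKM and Cnga4, its partner, at 63.1 ± 1.97 RPKM in WT mice, and Cnga3, 5 of 7 by level, made up 0.0639% of the summed level of the list. Cnga3 amounted to 0.0947% ± 0.0145 of Cnga2 in WT, 0.131% ± 0.0172 in het and 0.156% ± 0.0277 in homo mice (SD, n = 3 each). Cnga2 itself, which Gucy1b2 neurons share with canonical ones, had a log2 fold change of 0.032 in homo against WT mice (SE 0.045, edgeR adjusted p = 0.888). Trpc2, the other channel of Gucy1b2 neurons, was listed at 0 in all 9 libraries. Of its 2874 exonic bases, 2803 (97.5%) are shared with the same-strand readthrough gene Xntrpc, also listed at 0, so the value says nothing about whether Trpc2 was expressed, and the pairing of Gucy1b2 with Trpc2 could not be examined.

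Pde2a ranked 3 of 16 phosphodiesterase genes with 9.65% of their summed WT level, below Pde4a (39.3 ± 1.80 RPKM) and Pde1c (13.5 ± 0.460 RPKM), both cyclic AMP-degrading enzymes of canonical olfactory neurons. Car2 ranked 1 of 16 carbonic anhydrases with 31.2% of the sum, but Car6, a secreted enzyme of saliva, overlapped with it at 43.1 ± 7.02 RPKM in WT mice, and Car3 followed at 18.6 ± 1.27 RPKM. Car6 ranged from 13.8 to 58.0 RPKM over the 9 mice, against 42.6 to 51.1 RPKM for Car2. The cyclic GMP-dependent kinases Prkg1 and Prkg2 stood at 2.35 ± 0.269 and 0.135 ± 0.0333 RPKM.

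MS4A genes, which include the chemoreceptors of necklace neurons, were sparse. Of 16 with a row, 8 had enough reads for the test. Ms4a6c led at 1.67 ± 0.154 RPKM in WT mice, followed by Ms4a6d at 1.11 ± 0.393 RPKM, and their log2 fold changes in homo against WT mice were 0.20 and -0.097 (edgeR adjusted p = 0.741 and 0.948). Macrophages express MS4A genes as well, and 8 macrophage markers, all with reads in every library, summed to 115 to 125 CPM in WT, 111 to 137 CPM in het and 110.0 to 126 CPM in homo mice. Their part in the MS4A levels was not tested.

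**Figure D4:**
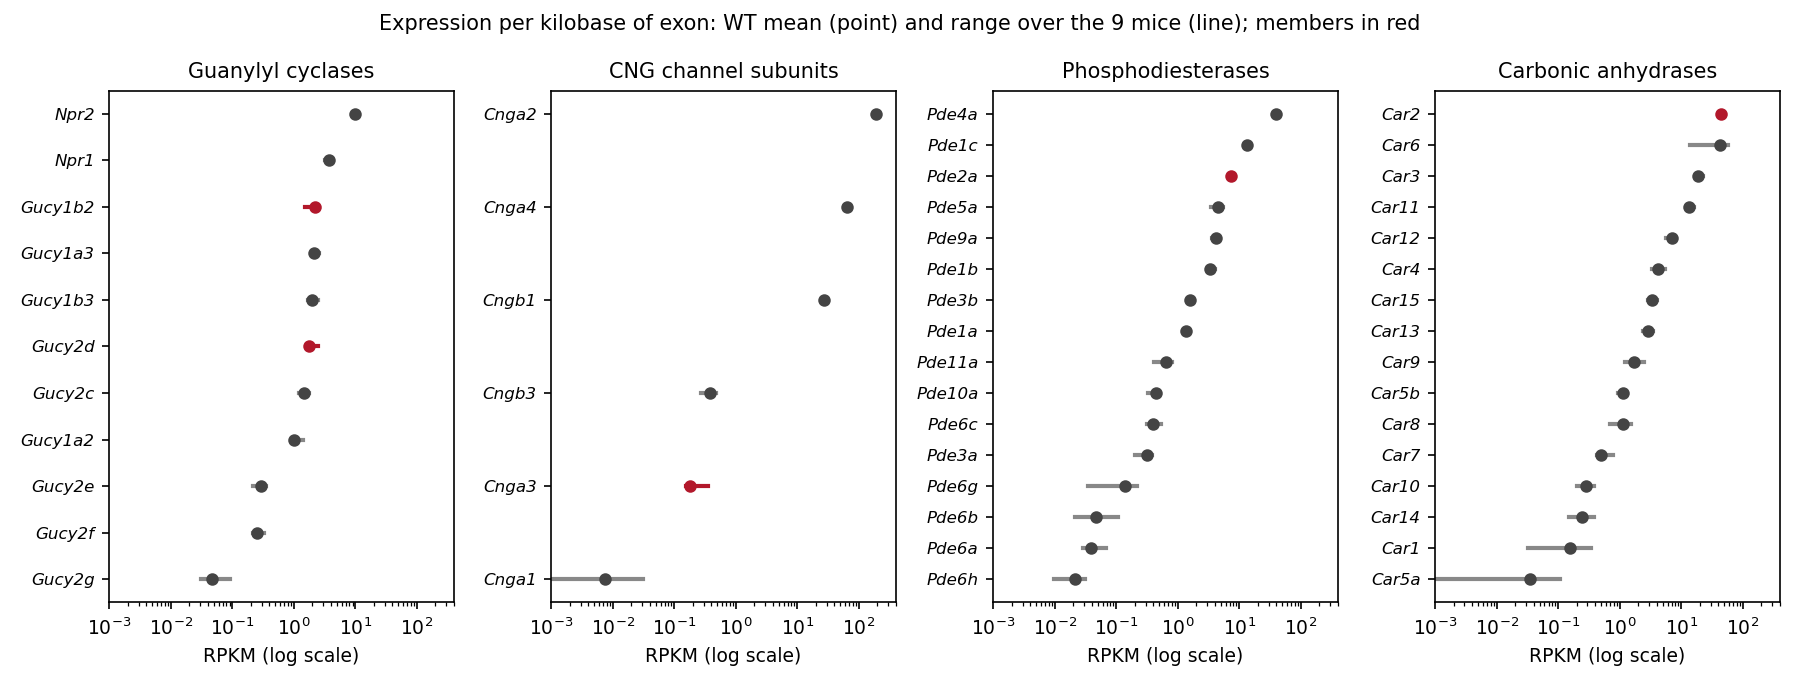
Expression per kilobase of exon (RPKM, log scale) of guanylyl cyclases, cyclic nucleotide-gated channel subunits, phosphodiesterases and carbonic anhydrases, ordered by the WT mean (points), with lines for the range over the 9 mice and members in red. A line that reaches the left edge includes a library at 0; Cnga3 ranks 5 of the 7 listed channel genes (Trpc2, at 0, is not drawn), and Car2 leads its family with Car6 overlapping it.

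Pde2a is also expressed by endothelium. The 8 endothelial markers, such as Pecam1 and Cdh5, summed to 174 to 177 CPM in WT, 176 to 189 CPM in het and 163 to 175 CPM in homo mice. Markers of canonical neurons summed to 7719 to 7836 CPM in WT, 7807 to 8349 CPM in het and 8011 to 8620 CPM in homo mice. Homo mice lay above all WT mice on this sum, with means of 8306 ± 305 and 7796 ± 66.2 CPM (SD). Of single genes tested, 7.46% were likewise higher in homo without overlap. Ionocyte and tuft cell markers summed to 75.0 to 90.3 CPM and ensheathing glia markers to 297 to 349 CPM over the 9 mice. Their part in the members' levels was not tested.

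No pair of members was shown to vary together between mice. Over the 9 libraries 10 pairs of members were correlated on log2(CPM + 0.5), each with a two-sided exact permutation test, and 0 of 10 passed Benjamini-Hochberg adjustment. Pde2a and Car2 were closest, with Pearson r = 0.72 (exact p = 0.0217, adjusted 0.167) and Spearman rho = 0.55 (exact p = 0.133, adjusted 0.295), and r = 0.76 without the 2 libraries farthest from the median of Pde2a. Gucy2d and Cnga3 gave r = 0.64 (exact p = 0.0669, adjusted 0.167) and rho = 0.53 (exact p = 0.148, adjusted 0.295). Without the 2 farthest libraries r was 0.69, but with deviations from genotype means it was 0.15. Cnga3 and Gucy1b2, genes of different populations, went in opposite directions with r = -0.69 (exact p = 0.0418, adjusted 0.167) and rho = -0.75 (exact p = 0.0255, adjusted 0.255). That relation was -0.38 without WT replicate 2 and homo replicate 3, on which it rested in part. With deviations from genotype means r was -0.95 (exact permutation p within genotypes = 0.0139, adjusted 0.139). Within genotypes Cnga3 varied by no more than its counting error (chi-square per degree of freedom 0.584). Its deviations, in this pair and with Gucy2d, may therefore be counting error alone.

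The genes whose level followed each member most closely over the 9 libraries were taken from 16167 genes with a mean of at least 1 CPM, by Pearson r of log2 CPM, as a description. For Gucy2d they were Vapb (r = 0.95), Sppl3 (0.92) and Ift80 (0.91). For Cnga3 they were Tmem151a (0.98), AI427809 (0.94) and Tmcc2 (0.94). Pnisr (0.92), Rimkla (0.92) and Slc2a8 (0.91) followed Pde2a, and Slitrk1 (0.93), Timm8b (0.92) and the odorant receptor gene Olfr796 (0.91) followed Car2. For Gucy1b2 the closest were Gprasp2 (0.96), Pcna (0.93) and Nme1 (0.93). No member was among the closest 3 genes of another member. With so many genes and only 9 libraries, values of this size say nothing of shared function.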

How the data were processed

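Libraries of polyA RNA from whole MOE were made with a strand-specific kit. Per the submitters' processing notes, the authors trimmed reads with Trimmomatic 0.36, mapped them to mm10 with HISAT2 2.1.0 and counted them with HTSeq 0.6.1p1, whereas the methods name featureCounts; the deposited raw counts have the layout of htseq-count. The annotation, strand setting and read length are not given in the sources used here. A second deposited table of counts divided by DESeq2 1.20.0 size factors was not used. Per library 57.4 to 60.0% of the tabulated reads were in genes, 21.6 to 22.4% in no gene, 16.9 to 19.4% not unique and 1.29 to 1.35% ambiguous; these summary rows were left out.

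Groups came from sample titles. Genes with at least 10 summed counts (20213) were normalized by TMM and tested with edgeR 4.0.16 in R 4.3.3 (quasi-likelihood, genotype as the only term, all 9 libraries, Benjamini-Hochberg, threshold 0.05). Each library counted as 1 mouse. CPM used TMM library sizes, and RPKM was CPM per kilobase of GENCODE M21 exons on GRCm38. RefSeq promoters matched 4 members; Car2 had no entry. Correlations used log2(CPM + 0.5) and all 362880 permutations. Alternatives were DESeq2 1.42.0 (with and without independent filtering), its size factors, no filter, filterByExpr, the 6 libraries compared, the replicate number as a block, a vomeronasal covariate, omission of the 3 vomeronasal-rich libraries and of each library. The fit was also run on simulated counts with larger changes than those of the members, and no result here rests on that run. Members and lists were chosen with earlier results of these data known. Named genes were the members, the 2 highest others per family and any called, the 3 closest per member, and Trpc2 and Cnga2. Ms4a4a was not analysed here. The result of 1 marker list, for red blood cells, is not reported here.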

Additional observations from a re-analysis of the deposited data

How the results depend on the processing

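No member was called in any pair of genotypes under any of the 18 alternatives that gave it an adjusted p, and no correlation between members passed under either of its own. Of 270 log2 fold changes of members under an alternative, 251 kept their direction, 19 turned and none was called. Those of Gucy2d, Cnga3 and Gucy1b2 in homo against WT and homo against het mice under default DESeq2 had no adjusted p, because independent filtering left them out, and so could not pass there. With the vomeronasal covariate Gucy1b2 turned to 0.12 in homo against WT mice and Pde2a to 0.020 in homo against het. Without the 3 vomeronasal-rich libraries Gucy1b2 turned to 0.22 and Car2 to -0.033 in homo against WT mice, and Gucy2d to -0.076 and Cnga3 to -0.024 in homo against het, where 1 homo mouse was left and was assumed to vary like the other groups. Leaving out 1 library at a time gave, in homo against WT mice, -0.0073 to 0.053 for Pde2a, -0.019 to 0.034 for Car2 and -0.37 to 0.032 for Gucy1b2. In het against WT mice it gave -0.0057 to 0.082 for Pde2a, -0.057 to 0.084 for Car2 and 0.10 to 0.38 for Gucy2d, the lowest without het replicate 3 and the highest without het replicate 1. In homo against het mice it gave -0.027 to 0.25 for Gucy2d, 0.16 to 0.44 for Cnga3, -0.066 to 0.023 for Pde2a, -0.072 to 0.071 for Car2 and -0.056 to 0.35 for Gucy1b2. The cause of these turns was not tested.

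Counts over all genes moved more. In homo against WT mice edgeR called 10 genes, against 65 with DESeq2, 48 without its independent filtering, 47 with only the 6 libraries compared, and 8 to 33 over single libraries left out. In het against WT mice it called 1, against 3 with DESeq2 and 0 to 1 over single libraries left out. In homo against het mice it called 23, against 122 with DESeq2, 123 without independent filtering, 50 without the filter on low counts, 11 with the 6 libraries, 8 with the covariate and 6 without the vomeronasal-rich libraries, and 7 to 190 over single libraries left out. For any difference it called 13, against 124 and 92 with DESeq2, 33 without the filter, 7 with the covariate and 7 to 70 over single libraries left out. The highest of each range, apart from het against WT, came without het replicate 3. Per-length levels moved with the longest transcript as the length, to 10.9 RPKM for Pde2a, 60.1 RPKM for Car2 and 2.02 RPKM for Gucy2d in WT mice.

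The labels tie replicate numbers to no shared litter or batch. Over 16167 genes, deviations of same-numbered mice from their genotype means correlated at -0.0017, -0.055 and -0.083 for homo and WT replicates 1 to 3, at 0.055, -0.18 and -0.13 for het and WT, and at -0.021, 0.28 and 0.34 for homo and het. In no pair of genotypes did all 3 exceed 0.1, so the numbers were not taken as pairs. With the replicate number as a block the log2 fold change in homo against WT mice was 0.35 for Gucy2d and 0.76 for Cnga3 (edgeR adjusted p = 0.390 and 0.441), no member was called, and the count over all genes was 41 in homo against het mice, 0 in het against WT and 20 for any difference. Of limits, Cnga3 rests on 58 reads in all WT mice, 3 mice per genotype leave wide intervals for Gucy1b2 and Cnga3, and reads carry no molecular identifiers.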
